A study of Mus musculus with 11 samples.

Results

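The genes described here are 10 mouse tubulin genes: the α-tubulin genes Tuba1a, Tuba1b, Tuba1c and Tuba4a, the β-tubulin genes Tubb5, Tubb4b, Tubb2a, Tubb2b and Tubb6, and the γ-tubulin gene Tubg1. They were chosen by symbol and not by a cut on measured values, but with earlier results of these data known. All 10 were found among the 21957 genes counted. Coding-sequence reads of mRNA and of ribosome footprints, the mRNA fragments covered by translating ribosomes, were counted in primed OT1 cells, which are mouse CD8 T cells with a transgenic T cell receptor for an ovalbumin peptide. The stimulated group had been activated for 2 h with beads that carry antibodies against CD3 and CD28, and the unstimulated group (T0) had been left resting. Cells of both groups carried the OT1 receptor, were described as primed, and were treated with cycloheximide, an inhibitor of translation elongation, for 10 min before harvest. There were 3 stimulated and 3 unstimulated RNA libraries, and 2 stimulated and 3 unstimulated footprint libraries. No stimulated footprint replicate 1 was among the 11 libraries. Whether the replicates came from separate cultures or mice is not given in the labels; the p-values therefore reflect the spread between these samples, which may be technical.

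Microtubules are polymers of α- and β-tubulin heterodimers, and γ-tubulin, in ring complexes at the centrosome, starts their growth. In T cells the centrosome and its microtubules turn towards the contact with an antigen-presenting or target cell, and they later form the spindle of the dividing cell. Vertebrates carry several α and β genes, called isotypes, whose proteins are alike over most of their length and differ mainly at the carboxy-terminal tail. Tubulin mRNAs are subject to autoregulation: when free tubulin dimers accumulate, the nascent chain is recognised by TTC5 on the ribosome and the mRNA is degraded.

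RNA libraries held 21658263 to 39346699 counts. Footprint libraries held 20848 and 23641 counts in stimulated cells and 11136 to 15237 in unstimulated cells. The CD8 T cell markers (Cd3e, Cd3g, Cd3d, Cd8a, Cd8b1, Cd5, Lck and Thy1) summed to 2160 to 3460 CPM (read counts scaled to a common library size by the TMM method of edgeR) in stimulated and 2910 to 3260 CPM in unstimulated RNA. B cell markers summed to 7.28 to 12.3 CPM in stimulated and 4.82 to 11.1 CPM in unstimulated RNA, and myeloid markers to 20 to 25.2 CPM in stimulated and 14 to 22.5 CPM in unstimulated RNA. CD4 T cell markers summed to 18.9 to 24.8 CPM in stimulated and 11.8 to 12.2 CPM in unstimulated RNA. Neuronal markers, included because several tubulin isotypes are abundant in neurons, summed to 20.7 to 28.1 CPM in stimulated and 9.93 to 21.1 CPM in unstimulated RNA. None of these markers was at 0 in all RNA libraries. A pair of predicted genes, Gm10800 and Gm10801, took 19.3, 16 and 6.6% of counts in stimulated RNA replicates 1, 2 and 3 and 2.27, 13.4 and 3.42% in unstimulated RNA replicates 1, 2 and 3. The part of the marker levels and of these counts in the results on the tubulins was not tested, but each result was also computed with scaling factors taken only from genes of at least 10 CPM.

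The promoters are shown for 5 genes whose TMM-scaled RNA values lay on different sides of the unstimulated libraries: Tubb5, Tuba1a and Tuba1b below them in every stimulated library, and Tuba1c and Tuba4a above. Of these only Tuba1a passed the test described in the next paragraph. Each line gives the 150 bases before a transcription start (RefSeq, build GRCm38.p6; for Tuba4a an internal start, inside the span of the gene given in its paragraph), read 5′ to 3′ along the gene, with capitals at every match, on either strand, to the CCAAT box (CCAAT), the core of the GC box (GGGCGG), the TATA box (TATAAA), the cyclic AMP response element (TGACGTCA) or the E-box (CACGTG).
Tuba1a, chr15:98953502-98953651, minus strand: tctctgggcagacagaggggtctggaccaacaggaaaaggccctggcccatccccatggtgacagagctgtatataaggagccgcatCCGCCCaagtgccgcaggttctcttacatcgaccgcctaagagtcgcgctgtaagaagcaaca
Tuba1b, chr15:98934391-98934540, minus strand: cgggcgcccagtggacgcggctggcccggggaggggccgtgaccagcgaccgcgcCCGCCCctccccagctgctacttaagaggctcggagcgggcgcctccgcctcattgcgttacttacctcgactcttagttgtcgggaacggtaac
Tuba1c, chr15:99029741-99029890, plus strand: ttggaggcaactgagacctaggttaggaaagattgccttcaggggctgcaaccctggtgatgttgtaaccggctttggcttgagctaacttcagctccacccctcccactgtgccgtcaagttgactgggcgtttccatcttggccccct
Tuba4a, chr1:75219295-75219444, minus strand: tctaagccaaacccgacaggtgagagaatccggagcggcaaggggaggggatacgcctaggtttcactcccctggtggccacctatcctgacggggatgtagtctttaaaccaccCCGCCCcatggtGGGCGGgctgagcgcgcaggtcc
Tubb5, chr17:35838302-35838451, minus strand: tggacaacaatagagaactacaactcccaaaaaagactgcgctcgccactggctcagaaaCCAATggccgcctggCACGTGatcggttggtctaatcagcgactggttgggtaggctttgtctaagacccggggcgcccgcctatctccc
RefSeq promoters were matched for 7 of the 10 genes; Tubb2b, Tubb6 and Tubg1 had no entry. The GC box core was in 4 of the 7 windows (Tuba1a, Tuba1b, Tuba4a and Tubb2a), against 28.6% of 32851 mouse promoters cut to the same window. The CCAAT box was in 2 of the 7 (Tubb5, and 3 copies in Tubb4b), against 24.5%. The E-box was in the window of Tubb5 only, beginning at position -75 from the start, against 4.3%. The exact letters TATAAA and the cyclic AMP response element were both in the window of Tubb2a only, against 7.57 and 1.36% of promoters. Tuba1c held none of the 5 motifs. Other forms of the TATA box were not searched for. A match describes the letters and is no evidence of binding.

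After 2 h of stimulation the tubulin mRNAs did not move as one. Tubg1 and Tuba1a fell, Tuba1b and Tubb5 had lower values in every stimulated library without passing the test, Tuba4a, Tuba1c and Tubb6 had higher values in every stimulated library without passing it, and Tubb4b, Tubb2a and Tubb2b overlapped between the groups. With edgeR's quasi-likelihood F test, adjusted by the Benjamini-Hochberg method over 18886 genes, 2 of the 10 were called lower and 0 higher at an adjusted p under 0.05. At an unadjusted p under 0.05 there were 4 lower and 3 higher, against 11.5% lower and 9.08% higher of all genes. DESeq2 called 4 lower and 0 higher, against 11.9% lower and 1.65% higher of all genes. Among all genes tested 8.26% were called, 4.68% lower and 3.58% higher. The groups did not overlap for 7 of the 10, 4 lower and 3 higher, in a background of 29% of genes tested, 13.6% lower and 15.4% higher. On library totals without TMM 4 were lower and 2 higher (38.3% of all genes in either direction, 27.8% lower and 10.5% higher). The median log2 change of the 10 was 0.03, beside 0.39 over all genes tested. In these bulk samples, fewer cells of a type and less RNA per cell cannot be told apart. When the scaling factors were taken from genes of at least 10 CPM, a setting chosen with results of these data known, 4 of the 10 were called higher (Tuba4a, Tuba1c, Tubb6 and Tubb2a) and 4 lower (Tubb5, Tuba1b, Tubg1 and Tuba1a), in a background of 32.2% called, 16.7% higher and 15.5% lower. Under it 4 were lower and 5 higher in every stimulated library, where 42.5% of all genes did not overlap, 19.4% lower and 23.1% higher. Calls were more frequent still when only genes of at least 10 CPM were tested, at 36.9% higher and 36.4% lower. The scaling put the median over all genes tested at 0.50 and that of the tubulins at 0.14. CPM and counts are not corrected for coding length, so the order of genes by counts is not an order of transcript levels.

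**Figure D1:**
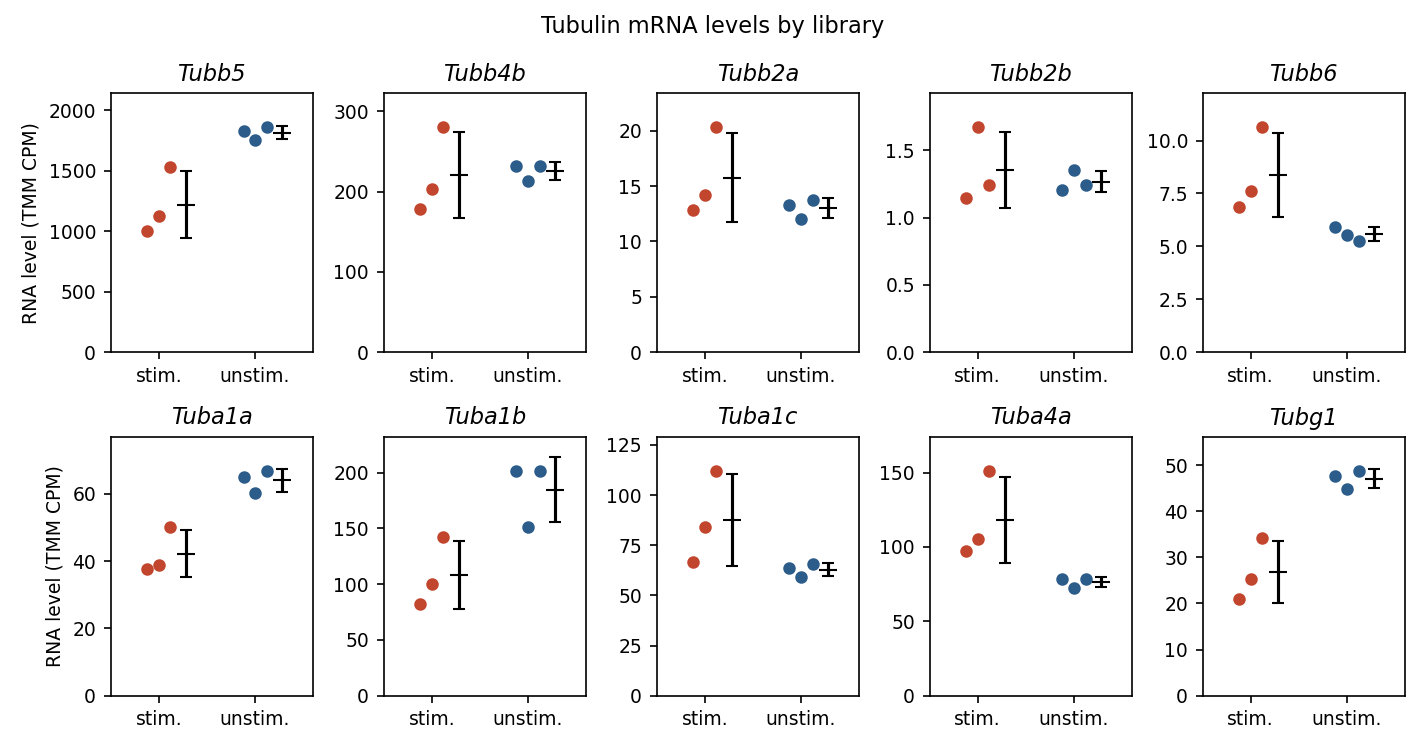
RNA level of each tubulin gene (vertical axis, TMM-scaled CPM, each panel with its own linear axis from 0) in 3 stimulated and 3 unstimulated libraries; points are libraries, in replicate order, and bars the mean ± SD. Tubb5, Tuba1a, Tuba1b and Tubg1 lie lower in every stimulated library, Tubb6, Tuba1c and Tuba4a higher, and the other 3 genes overlap.

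Among the α-tubulin genes, Tuba1a (ENSMUSG00000072235, chromosome 15, 98949847 to 98953501), an isotype known best from developing neurons, had 37.68, 38.92 and 50.21 CPM in stimulated RNA replicates 1, 2 and 3 and 65.07, 60.18 and 66.9 CPM in unstimulated RNA replicates 1, 2 and 3. All stimulated libraries lay below all unstimulated ones. The means were 42.27 ± 6.91 CPM in stimulated and 64.05 ± 3.47 CPM in unstimulated cells (SD, n = 3 each), a log2 change of -0.60 ± 0.17 (SE, adjusted p = 0.0486 by edgeR). The call was lost when stimulated replicate 1 (adjusted p = 0.226) or 2 (0.261) or unstimulated replicate 1 (0.192) or 3 (0.296) was left out; the change kept its sign under all 14 alternatives, from -0.92 to -0.50.

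Tuba1b (ENSMUSG00000023004, chromosome 15, 98931429 to 98934390), a broadly expressed α-tubulin of dividing cells, had 82.6, 100.3 and 142.3 CPM in stimulated RNA and 201.7, 151 and 201.2 CPM in unstimulated RNA. The highest stimulated library stayed just under the lowest unstimulated one. The means were 108.4 ± 30.7 CPM in stimulated and 184.6 ± 29.1 CPM in unstimulated cells (SD, n = 3 each), a log2 change of -0.77 ± 0.23 that missed the threshold (adjusted p = 0.0643 by edgeR) and passed it with factors from genes of at least 10 CPM (-0.68, adjusted p = 0.000627). Over the alternatives the change ran from -1.17 to -0.68 and was called in 10 of 14. Among them were the fits without unstimulated replicate 2 (-1.17, adjusted p = 8.14e-07) or stimulated replicate 3 (-1.02, adjusted p = 0.00222). These fits called 13024 of 19219 and 5255 of 19468 genes in all. The change was not called without unstimulated replicate 1 (adjusted p = 0.108) or 3 (0.179), or without stimulated replicate 1 (0.187) or 2 (0.158).

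The other pair of α-tubulin genes had values in the opposite direction. Tuba1c (ENSMUSG00000043091, chromosome 15, 99029891 to 99038105), which lies near Tuba1a and Tuba1b on chromosome 15, had 66.71, 84.1 and 112.1 CPM in stimulated RNA and 63.44, 59.12 and 65.68 CPM in unstimulated RNA. The groups did not overlap, by the narrow gap between stimulated replicate 1 and unstimulated replicate 3. The log2 change was 0.48 ± 0.20 (adjusted p = 0.196 by edgeR), and 0.57 (adjusted p = 9.43e-05) with factors from genes of at least 10 CPM. The change was positive under all 14 alternatives, from 0.16 to 0.57. It was also called when only genes of at least 10 CPM were tested (adjusted p = 9.39e-06), where 6228 of 8494 genes were called. It was smaller with DESeq2 (0.16, adjusted p = 0.66), without unstimulated replicate 2 (0.17, adjusted p = 0.148) and without stimulated replicate 3 (0.26, adjusted p = 0.141). On library totals the groups overlapped.

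Tuba4a (ENSMUSG00000026202, chromosome 1, 75214972 to 75221261), an α-tubulin whose coding sequence does not encode the terminal tyrosine found in most α-tubulins, had 97.42, 105.5 and 151.2 CPM in stimulated RNA and 78.73, 72.31 and 78.38 CPM in unstimulated RNA. Every stimulated library was above every unstimulated one. The means were 118 ± 29 CPM in stimulated and 76.47 ± 3.61 CPM in unstimulated cells (SD, n = 3 each), a log2 change of 0.63 ± 0.20 (adjusted p = 0.0795 by edgeR; 0.71, adjusted p = 3.85e-06, with factors from genes of at least 10 CPM). The change was positive under all 14 alternatives, from 0.30 to 0.71, and called in 6. These included the fits without unstimulated replicate 2 (0.31, adjusted p = 0.0114) or stimulated replicate 3 (0.40, adjusted p = 0.00765), which called 13024 of 19219 and 5255 of 19468 genes. The change was not called without unstimulated replicate 1 (adjusted p = 0.297) or 3 (0.451), or without stimulated replicate 1 (0.453) or 2 (0.415). The span of Tuba4a overlaps Stk16 and A630095N17Rik, and it is not stated whether strands were counted apart. Stk16 had a log2 change of -0.08 (adjusted p = 0.744) and A630095N17Rik one of 0.57 (adjusted p = 0.671).

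Tubb5 (ENSMUSG00000001525, chromosome 17, 35833920 to 35838301) encodes a β-tubulin found in most tissues and prominent in lymphoid cells. It had 1003, 1126 and 1527 CPM in stimulated RNA and 1829, 1751 and 1858 CPM in unstimulated RNA. All 3 stimulated libraries were lower, with a wider spread than the unstimulated ones. The means were 1219 ± 274 CPM in stimulated and 1813 ± 55.1 CPM in unstimulated cells (SD, n = 3 each), a log2 change of -0.57 ± 0.22 (adjusted p = 0.148 by edgeR). With factors from genes of at least 10 CPM the libraries drew together, at 1226, 1242 and 1272 CPM in stimulated and 1704, 1778 and 1747 CPM in unstimulated cells, and the change of -0.48 was called (adjusted p = 1.48e-05). It was negative under all 14 alternatives, from -0.89 to -0.48, and called in 7. These included the fits without unstimulated replicate 2 (-0.87, adjusted p = 3.86e-05) or stimulated replicate 3 (-0.78, adjusted p = 0.00503), which called 13024 of 19219 and 5255 of 19468 genes. The change was not called without unstimulated replicate 1 (adjusted p = 0.375) or 3 (0.452), or without stimulated replicate 1 (0.328) or 2 (0.334).

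Tubb4b (ENSMUSG00000036752, chromosome 2, 25222158 to 25224702), a widely expressed β-tubulin also used in cilia, had 177.9, 203.1 and 280.2 CPM in stimulated RNA and 232.1, 212.8 and 231.4 CPM in unstimulated RNA. The groups overlapped, and the log2 change was -0.03 ± 0.21 (adjusted p = 0.913 by edgeR). Its sign changed to positive with factors from genes of at least 10 CPM (0.06, adjusted p = 0.273). A negative change was called without unstimulated replicate 2 (-0.35, adjusted p = 0.00936), in a fit that called 13024 of 19219 genes. Without the 3 RNA libraries with the most Gm10800 and Gm10801 counts the change of Tubb4b was -0.17. Its span overlaps Fam166a, whose log2 change was 0.02 (adjusted p = 0.969).

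The 3 remaining β-tubulin genes had low counts. Tubb6 (ENSMUSG00000001473, chromosome 18, 67390731 to 67402749), a divergent isotype, had 6.883, 7.631 and 10.63 CPM in stimulated RNA and 5.909, 5.552 and 5.275 CPM in unstimulated RNA, with no overlap. Its log2 change was 0.59 ± 0.25 (adjusted p = 0.201 by edgeR; 0.67, adjusted p = 0.0206, with factors from genes of at least 10 CPM). The change was positive under all 13 alternatives that gave Tubb6 a value, from 0.27 to 0.67. It was 0.27 (adjusted p = 0.514) with DESeq2, 0.31 (adjusted p = 0.166) without unstimulated replicate 2 and 0.37 (adjusted p = 0.254) without stimulated replicate 3. Tubb2a (ENSMUSG00000058672, chromosome 13, 34074278 to 34078008), which like Tubb2b is a major neuronal isotype, had 12.8, 14.16 and 20.31 CPM in stimulated RNA and 13.28, 12.03 and 13.72 CPM in unstimulated RNA. Its groups overlapped at stimulated replicate 1, and its change of 0.27 ± 0.18 did not pass (adjusted p = 0.343 by edgeR) except with factors from genes of at least 10 CPM (0.36, adjusted p = 0.00271) or when only such genes were tested (adjusted p = 0.00112). Tubb2b (ENSMUSG00000045136, chromosome 13, 34127008 to 34130354) had 1.147, 1.671 and 1.242 CPM in stimulated RNA and 1.205, 1.355 and 1.241 CPM in unstimulated RNA, and was called under none of the 13 alternatives that gave it a value.

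Tubg1 (ENSMUSG00000035198, chromosome 11, 101119904 to 101126423), the main γ-tubulin gene outside neurons, had 20.96, 25.21 and 34.19 CPM in stimulated RNA and 47.53, 44.88 and 48.76 CPM in unstimulated RNA. Each stimulated library was well below each unstimulated one. The means were 26.79 ± 6.76 CPM in stimulated and 47.06 ± 1.98 CPM in unstimulated cells (SD, n = 3 each), a 1.76-fold decrease (log2 change -0.81 ± 0.18, adjusted p = 0.0193 by edgeR). It was negative under all 14 alternatives, from -1.13 to -0.72, and called in 12; the call was lost without stimulated replicate 1 (adjusted p = 0.0797) or 2 (0.0648).

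**Figure D2:**
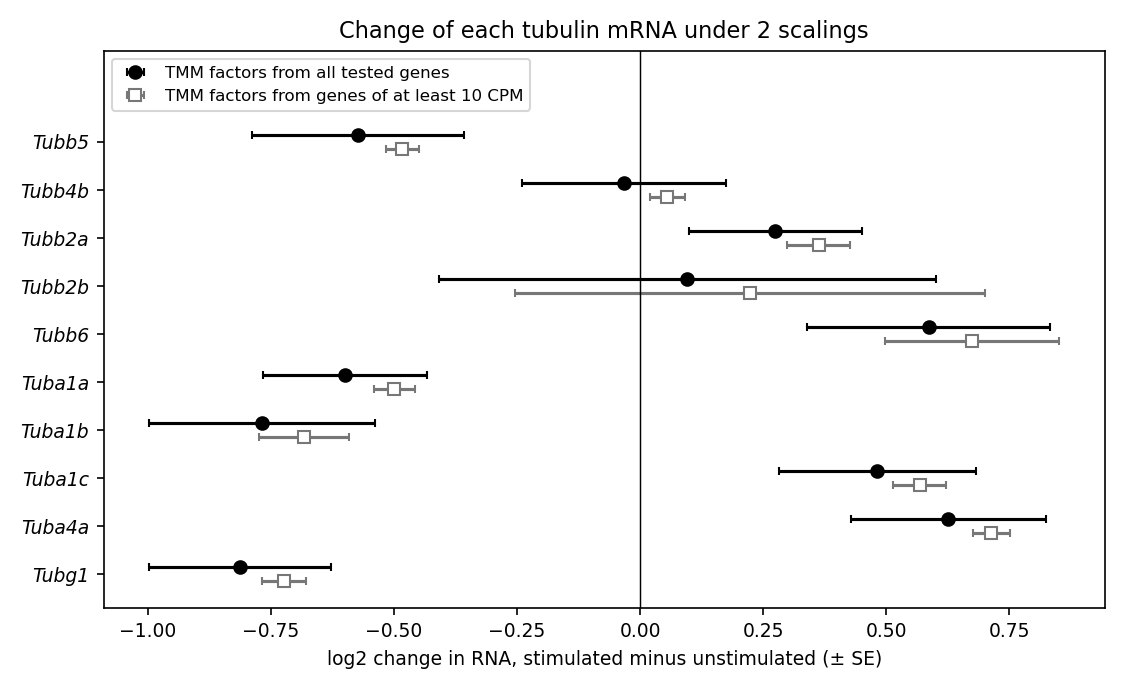
Log2 change of each tubulin mRNA, stimulated minus unstimulated (horizontal axis, ± SE), with TMM factors from all tested genes (filled circles) and from genes of at least 10 CPM (open squares). The second scaling moves every gene upwards by a similar step and narrows the errors; Tubb5, Tuba1a, Tuba1b and Tubg1 stay negative and Tuba4a, Tuba1c, Tubb6 and Tubb2a positive under both, while Tubb4b crosses 0.

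The split among isotypes was also measured within each library, where no scaling factor enters. Of the RNA counts on the 4 α-tubulin genes, Tuba1b took 29.04, 30.52 and 31.22% in stimulated replicates 1, 2 and 3 and 49.32, 44.07 and 48.82% in unstimulated replicates 1, 2 and 3. Tuba4a took 34.25, 32.07 and 33.17% in stimulated and 19.25, 21.11 and 19.02% in unstimulated libraries, with no overlap between the groups. Tuba1c averaged 24.54 ± 1.06% in stimulated and 16.24 ± 0.909% in unstimulated cells, and Tuba1a 12.03 ± 1.13% in stimulated and 16.57 ± 0.877% in unstimulated cells (SD, n = 3 each). None of the 4 overlapped between the groups, and each difference had the smallest p that an exact two-sided permutation test of 3 against 3 libraries allows (p = 0.1). Shares of 1 class sum to 100%, so they are not 4 separate results. Tuba1a, Tuba1b and Tuba1c are near-identical in coding sequence, and how reads that match several of them were counted is not stated, so the division among these 3 is uncertain.

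Of the counts on the 5 β-tubulin genes, Tubb5 took 83.24 ± 0.221% in stimulated and 88.08 ± 0.223% in unstimulated cells (SD, n = 3 each). Tubb4b took 15.02 ± 0.213% in stimulated and 10.95 ± 0.21% in unstimulated cells. Tubb2a took 1.072 ± 0.0292% in stimulated and 0.6318 ± 0.0227% in unstimulated cells, and Tubb6 0.5715 ± 0.00683% in stimulated and 0.2713 ± 0.0185% in unstimulated cells. The share of Tubb5 was thus lower in every stimulated library (ratio of stimulated to unstimulated share 0.945), and the shares of Tubb4b (1.37), Tubb2a (1.7) and Tubb6 (2.11) were higher (exact two-sided permutation p = 0.1 for each, the smallest possible). Tubb2b overlapped (0.09551 ± 0.028% in stimulated and 0.0617 ± 0.00576% in unstimulated cells, exact permutation p = 0.2). Counts on the α genes divided by counts on the β genes gave 0.237, 0.243 and 0.248 in stimulated and 0.197, 0.173 and 0.195 in unstimulated libraries, again without overlap.

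**Figure D3:**
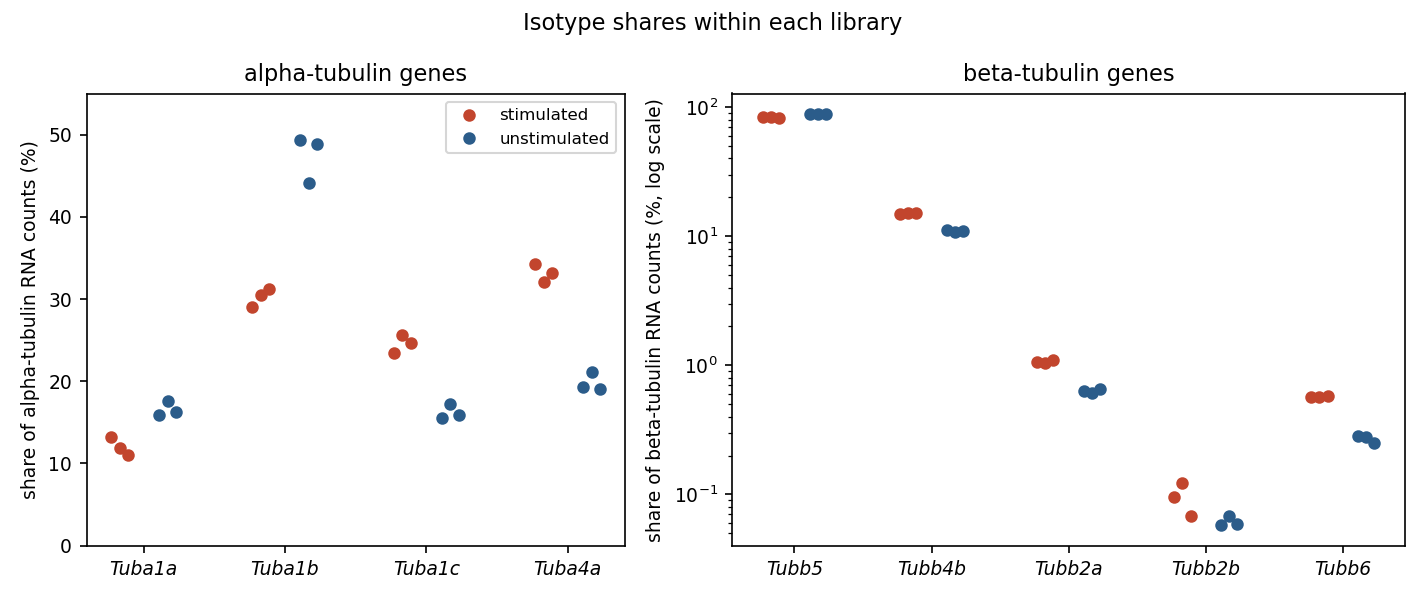
Share of each isotype in the RNA counts of the α-tubulin genes (left, percent, linear axis from 0) and of the β-tubulin genes (right, percent, log axis) in each of 3 stimulated and 3 unstimulated libraries. Tuba4a and Tuba1c take a larger share and Tuba1b and Tuba1a a smaller share in every stimulated library; among the β genes only Tubb2b overlaps between the groups.

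Summed over the 10 genes, tubulin mRNA made up 0.158 to 0.193% of RNA counts in stimulated and 0.245 to 0.275% in unstimulated libraries, or 1848 ± 429 TMM-scaled CPM in stimulated and 2493 ± 108 in unstimulated cells (SD, n = 3 each). The β genes summed to 1465 ± 333 CPM in stimulated and 2058 ± 66.6 CPM in unstimulated cells, and the α genes to 356.3 ± 89 CPM in stimulated and 387.9 ± 39.3 CPM in unstimulated cells. The β sum therefore lay lower in stimulated cells and the α sums overlapped. Most of the β sum was Tubb5. The 5 other genes whose level followed this sum most closely over the 6 RNA libraries, of 8478 with at least 10 CPM, were Kat7, Pkmyt1, Crkl, Dele1 and Hmgxb4, with a root mean square difference of 0.0119 to 0.0177 on the centred log2 scale. Since all of these share the same 6 libraries and their scaling, this is a description only.

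In ribosome footprints the family gave 178 counts in the 2 stimulated libraries and 105 in the 3 unstimulated ones, which was 0.364 to 0.441% of all footprints in stimulated and 0.213 to 0.328% in unstimulated libraries. Tubb5 made up most of them and was the only tubulin gene that passed edgeR's filter on low counts. It had 73 and 64 counts in stimulated replicates 2 and 3 and 16, 27 and 47 counts in unstimulated replicates 1, 2 and 3. On the TMM scale this was 3377 and 2665 CPM in stimulated and 1665, 1783 and 2915 CPM in unstimulated cells. Unstimulated replicate 3 lay between the 2 stimulated libraries, so the groups overlapped; they did not overlap for 38.7% of the 256 genes tested. The means were 3020 ± 503 CPM in stimulated cells (SD, n = 2) and 2121 ± 691 CPM in unstimulated cells (SD, n = 3), and the log2 change of 0.47 ± 0.25 did not pass (adjusted p = 0.26 by edgeR over those genes, of which 9.38% were called). It passed without unstimulated replicate 3 (0.74, adjusted p = 0.0304) and with factors from genes of at least 10 CPM (0.75, adjusted p = 0.0405; 11.7% of genes called), and was smaller without unstimulated replicate 1 (0.30, adjusted p = 0.547) or 2 (0.28, adjusted p = 0.677).

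The values of Tubb5 thus had opposite signs in the 2 assays, negative in RNA and positive in footprints, although neither passed. Translational efficiency, the change in footprints relative to the change in RNA, was tested in 1 model of all 11 libraries, as the term by which stimulation acted differently on the 2 assays. For Tubb5 it was 1.05 ± 0.39 on the log2 scale (adjusted p = 0.192 by edgeR over 255 genes, whose median was 0.05), and none of the 255 was called (0% of genes, 28 at an unadjusted p under 0.05; DESeq2 called 31 of 10636). The value was positive under all 19 alternatives, from 0.86 to 1.46, and called in 6, with adjusted p-values from 0.000465 to 0.569. These 6 were DESeq2 (adjusted p = 0.00275), library totals without TMM (0.00447), factors from genes of at least 10 CPM (1.22, adjusted p = 0.00506; 8.63% of genes called), and the fits without unstimulated RNA replicate 2 (1.33, adjusted p = 0.000465), without stimulated RNA replicate 3 (1.24, adjusted p = 0.00202) and without the 3 RNA libraries with the most Gm10800 and Gm10801 counts (1.17, adjusted p = 0.000474).

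The same model gave the ratio of footprints to RNA within each state. In stimulated cells Tubb5 had 2.47 times the level in footprints that it had in RNA (log2 ratio 1.31 ± 0.28, adjusted p = 1.47e-05 by edgeR). There 58.8% of the 255 genes were called, and their median log2 ratio was 0.99. In unstimulated cells the log2 ratio was 0.26 ± 0.27 (adjusted p = 0.423 by edgeR), where 58.4% of genes were called and the median was 0.91. Tubb5 was thus above the median gene in stimulated cells and below it in unstimulated cells, and the difference between the states is the translational efficiency value given above, which did not pass. Counted over its libraries, Tubb5 had 137 footprints (95% exact Poisson interval 115 to 162) in stimulated cells, where its mean TMM-scaled RNA level would give 55.6. It had 90 (72.4 to 111) in unstimulated cells, where its RNA level in that state would give 74.1. Most tested genes lay above the number their RNA level would give in stimulated cells, with a median log2 ratio of 0.99 on this scale. They had passed the filter on footprint counts, and without a filter the median was 0.499 in stimulated and 0.308 in unstimulated cells. The Poisson intervals cover counting error only.

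Tuba4a gave the next most footprints, although it did not pass the filter and so had no edgeR test. It had 9 and 17 counts in stimulated replicates 2 and 3 and 2, 2 and 0 counts in unstimulated replicates 1, 2 and 3, or 416.3 and 707.8 CPM in stimulated against 208.1, 132.1 and 0 CPM in unstimulated cells. Both stimulated libraries were above all unstimulated ones, in the direction of its RNA. Of the 256 genes that passed the filter, 38.7% likewise had groups that did not overlap. An exact two-sided permutation test of 2 against 3 libraries gave p = 0.2 for Tuba4a, the smallest it allows. The total of 26 counts (95% exact Poisson interval 17 to 38.1) in stimulated cells was 4.83 times (3.15 to 7.07) the 5.39 its RNA level would give. In unstimulated cells the total of 4 (1.09 to 10.2) was 1.28 times (0.349 to 3.28) the 3.13 expected at the RNA level. Tested genes, which unlike Tuba4a had passed the filter, had a median log2 ratio of 0.99 in stimulated and 0.91 in unstimulated cells. Without a filter the medians were 0.499 and 0.308. Stk16, which overlaps Tuba4a, was not among the genes with enough footprints to test.

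**Figure D4:**
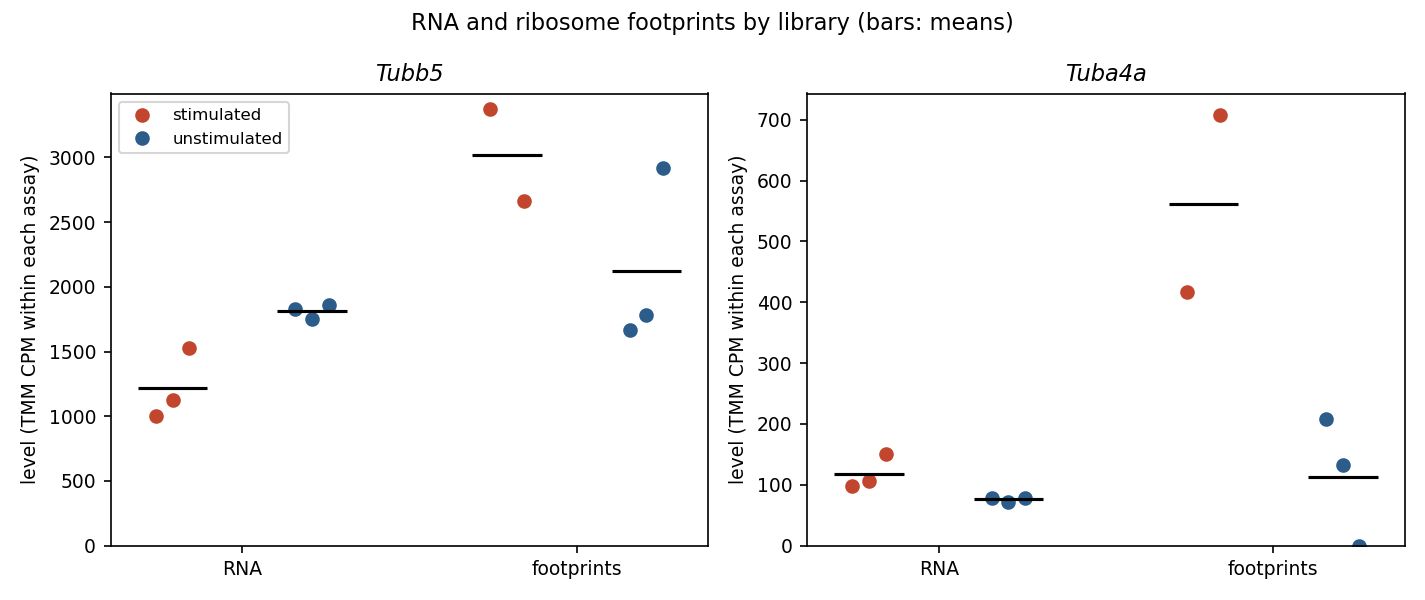
Levels of Tubb5 (left) and Tuba4a (right) in RNA and in ribosome footprints (vertical axis, TMM-scaled CPM within each assay, linear from 0); points are libraries, stimulated left of unstimulated, and bars are means. Tubb5 is lower in every stimulated RNA library, with footprints that overlap, and Tuba4a is higher in every stimulated library of both assays.

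The other 8 tubulin genes gave 0 to 6 footprints in any library. Tubb4b had 6 and 0 counts in stimulated and 2, 2 and 2 in unstimulated libraries, or 6 in each state, where its RNA level would give 10.1 in stimulated and 9.21 in unstimulated cells. Tubg1 had 2 and 3 counts in stimulated and 2, 0 and 0 in unstimulated libraries. The 5 in stimulated cells (1.62 to 11.7) compare with 1.22 at its RNA level, a ratio of 4.09 (1.33 to 9.54). The median log2 ratio of tested genes, which unlike Tubg1 had passed the footprint filter, was 0.99, and 0.499 without a filter. The 2 footprints of Tubg1 in unstimulated cells (0.242 to 7.22) compare with 1.92. Footprints of Tubg1 were not fewer in number in stimulated cells, although its RNA fell, and the counts are too low to compare the states.

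The Tuba1 genes were nearly absent from the footprints. Tuba1b had 2 and 0 counts in stimulated libraries, where its RNA level would give 4.95, and 0 in all 3 unstimulated libraries, where it would give 7.55 and a count of 0 has an upper 95% limit of 3.69. Tuba1a had 0 in every library, where its RNA level would give 1.93 in stimulated and 2.62 in unstimulated cells, and Tuba1c had 0 and 1 in stimulated and 2, 0 and 0 in unstimulated libraries. For Tuba1a and Tuba1c the intervals include the number at the RNA level in both states, so no shortfall was detectable at this depth. For Tuba1b the unstimulated interval lies below it. Whether short reads shared by near-identical genes were dropped is not stated, and its part in these counts was not tested. Tubb2a had 0 and 1 counts in stimulated and none in unstimulated libraries, Tubb2b none in stimulated and 0, 0 and 1 in unstimulated libraries, and Tubb6 none in any library; a floor of 3 counts in a library, the one-sided limit of a count of 0 (3.69 is the upper end of a two-sided interval), is 139 and 125 CPM in the stimulated and 186 to 312 CPM in the unstimulated libraries.

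**Figure D5:**
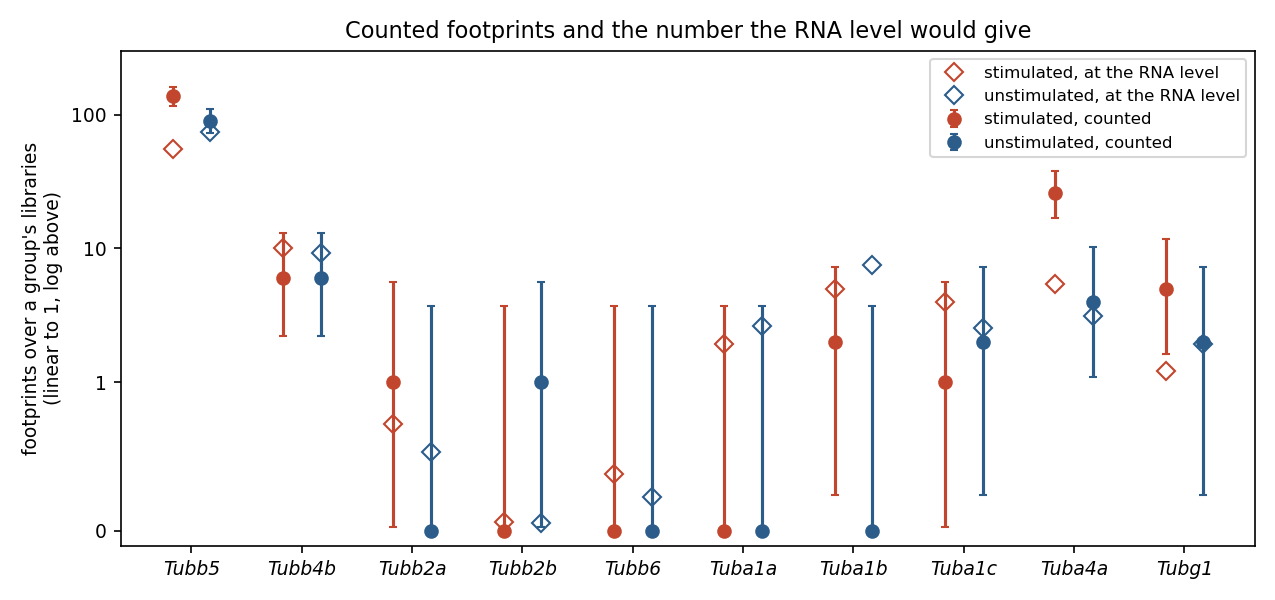
Footprints counted over each group's libraries (filled circles, with 95% exact Poisson intervals) and the number that each gene's mean TMM-scaled RNA level would give (open diamonds), stimulated left of unstimulated. The vertical axis is linear up to 1 and logarithmic above. Tubb5, Tuba4a and Tubg1 lie above the RNA-level number in stimulated cells, as do most tested genes (median log2 ratio 0.99, or 0.499 without a filter). Tuba1b lies below it in unstimulated cells.

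The other genes of the tubulin and microtubule system were set beside the same background in RNA. Of 10 further tubulin genes, 1 fell and 0 rose, against the background of 4.68% and 3.58%. Their median log2 change was 0.59, beside 0.39 over all genes tested, and all of them except Tube1 had under 10 CPM in both groups. The gene that fell was Tube1, which encodes ε-tubulin, a centriole component, with 17.51 ± 2.75 CPM in stimulated and 31.91 ± 0.464 CPM in unstimulated cells (SD, n = 3 each; log2 change -0.87, adjusted p = 0.00484 by edgeR). It was called under both scalings (-0.77, adjusted p = 8.94e-06, with factors from genes of at least 10 CPM). Of 11 genes of the γ-tubulin ring complex and of nucleation, 1 fell, 0 rose and 10 did not pass (median -0.32), against the same 4.68% lower and 3.58% higher. The gene that fell was Pcnt, which encodes pericentrin, a scaffold of the centrosome, with 145.9 ± 29.6 CPM in stimulated and 249.2 ± 11 CPM in unstimulated cells (-0.77, adjusted p = 0.0329 by edgeR). With factors from genes of at least 10 CPM, 6 of the 11 were called lower and 0 higher, against 15.5% lower and 16.7% higher of all genes and 36.4% lower and 36.9% higher when only genes of at least 10 CPM were tested.

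Of 13 tubulin folding cofactors and prefoldin subunits, which fold new tubulin chains and join the dimer, 0 were called, with a median of 0.01. At an unadjusted p under 0.05, 2 were higher and 1 lower, against 9.08% higher and 11.5% lower of all genes. DESeq2 called 0 higher and 1 lower, against 1.65% higher and 11.9% lower of all genes. Of the 13, those with the most counts were Tbcd, a β-tubulin folding cofactor (log2 change -0.32, adjusted p = 0.339 by edgeR), and Vbp1, a prefoldin subunit (0.07, adjusted p = 0.809). With factors from genes of at least 10 CPM 6 were called higher and 3 lower, against 16.7% higher and 15.5% lower of all genes. The shares were 36.9% higher and 36.4% lower when only genes of at least 10 CPM were tested. Ttc5, the autoregulation factor, had 39.75 ± 9.53 CPM in stimulated and 46.85 ± 2.33 CPM in unstimulated cells (-0.24, adjusted p = 0.389 by edgeR; -0.15, adjusted p = 0.0127, with factors from genes of at least 10 CPM). Of 14 tubulin-modifying enzymes, 1 fell and 0 rose (median 0.04), against 4.68% lower and 3.58% higher of all genes. The gene that fell was Ttll5, which adds glutamate chains to tubulin tails, with 27.23 CPM in stimulated and 39.95 CPM in unstimulated cells (-0.55, adjusted p = 0.0315 by edgeR). With factors from genes of at least 10 CPM, 2 of the 14 were called higher and 3 lower, against the same 16.7% higher and 15.5% lower.

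Among 23 microtubule-binding and severing proteins, 2 rose, 2 fell and 19 did not pass (median -0.27), against 3.58% higher and 4.68% lower of all genes. With factors from genes of at least 10 CPM, 7 were called higher and 12 lower, against 16.7% higher and 15.5% lower of all genes. When only genes of at least 10 CPM were tested, 36.9% of them were called higher and 36.4% lower. Camsap2 (0.74, adjusted p = 0.0201 by edgeR) and Camsap1 (0.71, adjusted p = 0.0223), both of which encode proteins that bind the minus ends of microtubules, rose. Dctn1, the large subunit of dynactin, which links dynein to its cargo, was among those that fell (-0.67, adjusted p = 0.0464 by edgeR). Proliferation genes were set beside the tubulins because tubulin expression is linked to cell division. Of 18, 7 fell, 0 rose and 11 did not pass (median -0.65), against 4.68% lower of all genes. With factors from genes of at least 10 CPM 17 were lower, against 15.5% of all genes and 36.4% when only genes of at least 10 CPM were tested. Examples were Ccnb2, which encodes cyclin B2 (-1.03, adjusted p = 0.00653 by edgeR), Rrm2, a subunit of ribonucleotide reductase (-0.88, 0.0261), Birc5, which encodes survivin (-0.79, 0.0198), and the mitotic kinesin gene Cenpe (-0.79, 0.0205). The lower tubulins, Tuba1a and Tubg1, changed in the same direction as these genes, and Tuba4a and Tuba1c had values in the opposite direction, without passing the test. No gene of these lists except 4 proliferation genes passed the footprint filter, and 0 of those 4 were called.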

How the data were processed

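The deposited files hold raw counts per gene over coding sequences, not normalized by the authors, for 11 libraries. The submitters' processing notes name STAR 2.5 and the build mm10 (GRCm38); the counting tool, strand setting and treatment of multi-mapping reads are not given in the sources used here. Symbols and positions came from RefSeq tables of GRCm38.p6, which named 21838 of 21957 identifiers. The tubulin genes, the gene lists, the tests and the rule for naming list genes (up to 4 called in RNA with at least 10 CPM, or the 2 with the most counts) were chosen with earlier results of these data known. Genes other than those, such as the overlapping Stk16 and Fam166a, were named after their values were seen. The values of 1 gene of the lists are not reported here.

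Counts were tested with edgeR 4.0.16 (R 4.3.3, limma 3.58.1; filterByExpr, minimum count 10, minimum total 15; TMM; quasi-likelihood F test, two-sided, Benjamini-Hochberg over all genes tested, threshold 0.05) in RNA, in footprints, and over all 11 libraries for translational efficiency and footprint-to-RNA ratios, with TMM within each assay. Library sizes were totals over all genes. The code was tested on simulated data. Alternatives were DESeq2 1.42.0, other scalings and filters, a replicate block and each library left out. A fit without the 3 RNA libraries richest in Gm10800 and Gm10801 counts was chosen after seeing the data. Replicates differed beyond sampling noise and were kept separate. Exact permutation tests and Poisson intervals used scipy 1.17.1 in Python 3.11.15.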

Additional observations from a re-analysis of the deposited data

How the results depend on the processing

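The main count of 2 tubulin genes called in RNA became 4 with DESeq2, 5 with library totals, 8 with factors from genes of at least 10 CPM, 7 when only genes of at least 10 CPM were tested, 8 without the 3 RNA libraries with the most Gm10800 and Gm10801 counts (chosen after seeing the data), and 0 to 6 with 1 library left out: 0 without stimulated replicate 1 or 2, 1 without unstimulated replicate 1 or 3, 5 without stimulated replicate 3 and 6 without unstimulated replicate 2. All genes called in RNA, 1560 of 18886, became 2912, 5220, 6080, 6228 and 7341 under these settings up to the 3 libraries, in the same order. With 1 library left out they were 583 to 13024. Of 8494 genes tested at 10 CPM or more, 6228 were called, as were 7 of the 8 tubulin genes among them. The fit without unstimulated replicate 2 called 13024 of 19219 genes, and that without stimulated replicate 3 called 5255 of 19468. Without stimulated replicate 1 or 2, 789 of 18950 and 583 of 19142 were called. Without unstimulated replicate 1 or 3, 917 of 19492 and 646 of 19487 were called. The share of higher genes among the RNA calls was 43.4%, 12.1% with DESeq2, 19.7% with RLE (relative log expression) scaling, 19.3% with library totals, 28.9% without a filter, 26.5% without the 3 libraries, 18.7% without stimulated replicate 3 and 51.8% with factors from genes of at least 10 CPM; the median change of all genes was 0.39, 0.27, 0.19, 0.22, 0.45, 0.06, 0.34 and 0.50 in that order, and 0.00 when only genes of at least 10 CPM were tested.

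In footprints, 1 tubulin gene was called with factors from genes of at least 10 CPM and 0 to 1 with 1 library left out; all genes called, 24, became 11 without a filter and 12 to 30. For translational efficiency Tubb5 was called (1 gene) with DESeq2, library totals, factors from genes of at least 10 CPM and without the 3 libraries, and 0 to 1 with 1 library left out; of all genes, 0 by edgeR, 31, 15, 22 and 13 were called in that order, 1 with RLE, 3 without a filter and 0 to 24 with 1 library left out. For the footprint-to-RNA ratio, DESeq2 called 2 tubulin genes in unstimulated cells (Tubb2b higher, Tuba1b lower) and no filter 1, with 0 on leaving out 1 library. Of all 10636 genes, DESeq2 called 3802 higher and 401 lower there, and the main fit called 58.4% of 255. The Tubb2b call rested on 1 footprint over the unstimulated libraries, and Tuba1b had 0 there. In stimulated cells DESeq2 called 3 (Tubb5, Tuba4a and Tubg1, all higher), no filter 2, a filter at 10 CPM in RNA and 50 CPM in footprints 2, and 1 to 2 with 1 library left out. A higher ratio was common: DESeq2 called 2179 higher and 284 lower of 10636 genes in stimulated cells, and the main fit called 58.8% of 255.

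The sign turned for Tubb2b in RNA with DESeq2 (-0.20), RLE (-0.11), library totals (-0.064), no filter (-0.0077), without unstimulated replicate 2 (-0.09), stimulated replicate 2 (-0.21) or the 3 libraries (-0.42), with a range of -0.21 to 0.15 on leaving out 1 library; for Tubb2a with DESeq2 (-0.049) and without unstimulated replicate 2 (-0.0496, in a range up to 0.24); for Tubb4b with factors from genes of at least 10 CPM (0.0556) or only those genes (0.0555); and for the unstimulated Tubb5 ratio without unstimulated footprint replicate 3 (-0.054, in a range up to 0.46). The cause was not tested. Same-numbered stimulated and unstimulated RNA libraries deviated together with r of -0.423, 0.316 and 0.628 over 8492 genes, and differently numbered ones with r of -0.718 to 0.589. Both kinds of r spread over both signs, so these values do not settle whether the numbers pair the samples. With the replicate number as a block, 3 tubulin genes (with Tuba1b) and 2404 genes in all were called in RNA.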
